A study of Mus musculus with 6 samples.

Results

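The B cell core identity genes are 9 genes, Cd79a, Cd79b, Ms4a1, Cd22, Blk, Bank1, Pax5, Ebf1 and Spib, chosen by name as genes that define the B lineage and matched by symbol in a table of 57180 mouse genes. All 9 passed the filter on low counts, among 14761 genes that were tested. RNA was sequenced from hepatic NK cells of male C57BL/6J mice of 6 to 8 weeks that had been sorted into CD36+ NK and CD36- NK, with 3 libraries in each group. All mice had received CCl4, a hepatotoxin that produces fibrosis, at 2.5 ml/kg of a 20% solution by intraperitoneal injection. The injections were given 2 times a week over 4 weeks, and samples were taken 48 h after the final one. Both groups therefore share the fibrosis model and differ in CD36, a scavenger receptor that takes up fatty acids. The study defined NK cells as live, single CD3- NK1.1+ cells in the lymphocyte gate, and the antibodies listed in its methods include none against a B cell antigen. The sources used here do not state whether a library came from 1 animal or from pooled animals, so the p-values measure the spread between these libraries, which may be technical.

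B cells recognise antigen through a surface immunoglobulin that has almost no cytoplasmic tail of its own. CD79A and CD79B pair beside it and carry the signal inwards through an immunoreceptor tyrosine-based activation motif (ITAM), a pair of tyrosines that Src family kinases phosphorylate and that the kinase SYK then binds. PAX5 and EBF1 install and hold this programme during development and repress the genes of other lineages, and SPIB is a partner factor of the ETS family. In the liver, B cells are a regular part of the lymphocytes between the hepatocytes, next to NK cells, T cells and Kupffer cells.

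The coding sequences of the ITAMs of Cd79a and Cd79b are shown because these motifs define what the pair does in the receptor and because both genes lead the members in level per length. They come from the longest coding transcript of each gene in the GENCODE M21 annotation of GRCm38, and capitals mark the codons of the paired tyrosines. That of Cd79a, on the plus strand, spans an intron between exons 4 and 5 of 5 (chr7:24901296-24901469), and that of Cd79b, on the minus strand, spans one between exons 5 and 6 of 6 (chr11:106311867-106312012).
Cd79a: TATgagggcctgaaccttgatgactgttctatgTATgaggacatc
Cd79b: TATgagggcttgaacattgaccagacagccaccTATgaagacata
The stretches are identical at 31 of 45 bases (68.9%).

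The promoter of Cd22 is shown because it was the only promoter found among the members with the full palindrome that EBF1, another member, is known to bind. The 100 bases before the RefSeq start site lie at chr7:30879029-30879128 on the minus strand of GRCm38.p6, and capitals mark the match.
Cd22: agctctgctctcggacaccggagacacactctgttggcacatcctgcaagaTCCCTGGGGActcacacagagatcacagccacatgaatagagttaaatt
Promoters from 250 bases before to 50 after the start were found in RefSeq for 6 members, with 2 windows for Ebf1, and none was found for Cd79b, Ms4a1 and Blk. The palindrome, TCCC and GGGA with 2 bases of any kind between them, is in 0.904% of 32851 such mouse promoters. GAGGAA, the core that SPIB and PU.1 share, was found on either strand in the promoter of Cd79a and in 1 window of Ebf1, and is in 28.3% of all promoters. The octamer ATGCAAAT, bound by POU2F2, was found in none of the members' windows and is in 1.74% of all promoters. Both strands were searched, no matches overlapped, and a match is a description of the letters only.

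The libraries held 10292480 to 13787189 counts, and replicates of a gene typically differed by a biological coefficient of variation of 20.3%. Cd36 checked the labels: its raw counts were 1232, 3569 and 2859 in CD36+ NK and 186, 359 and 175 in CD36- NK. The log2 fold change of Cd36 was 3.27, with an adjusted p of 0.00615 (edgeR's quasi-likelihood test, Benjamini-Hochberg). The NK label was less uniform. All 8 NK lineage genes (Klrb1c, Ncr1, Eomes, Tbx21, Gzma, Prf1, Klrk1 and Klre1) were lower in CD36+ NK and passed the thresholds for differentially expressed genes (DEGs), with a median log2 fold change of -2.48. Their summed level was 747 to 897 CPM (counts scaled to the size of each library) in CD36+ NK and 4015 to 5034 CPM in CD36- NK.

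All 9 B cell core genes were higher in CD36+ NK, with folds from 1.32 to 1.61, and all 9 were also abundant in CD36- NK. The groups did not overlap for any of the 9, and 17.0% of all tested genes were higher without overlap. Bank1, Blk, Ms4a1, Pax5, Cd22 and Cd79a rose at an adjusted p below 0.05 with edgeR, while Cd79b, Ebf1 and Spib did not pass. This share of 6 of 9 stood beside 5.07% of all tested genes that were higher at the same threshold. Single libraries decided much of that count: it was 1 without CD36+ NK replicate 2 or replicate 3, 2 without CD36- NK replicate 1, 3 without CD36- NK replicate 3, 4 without CD36- NK replicate 2 and 5 without CD36+ NK replicate 1. DEGs had to pass this threshold and also differ by more than 2-fold, and 5.96% of tested genes (880) were DEGs in either direction. With edgeR and with DESeq2, 0 of the 9 were DEGs because no fold reached 2. The median log2 fold change of the 9 was 0.50, against 0.01 over all tested genes. In these bulk samples, fewer cells of a type and less RNA per cell cannot be told apart.

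**Figure D1:**
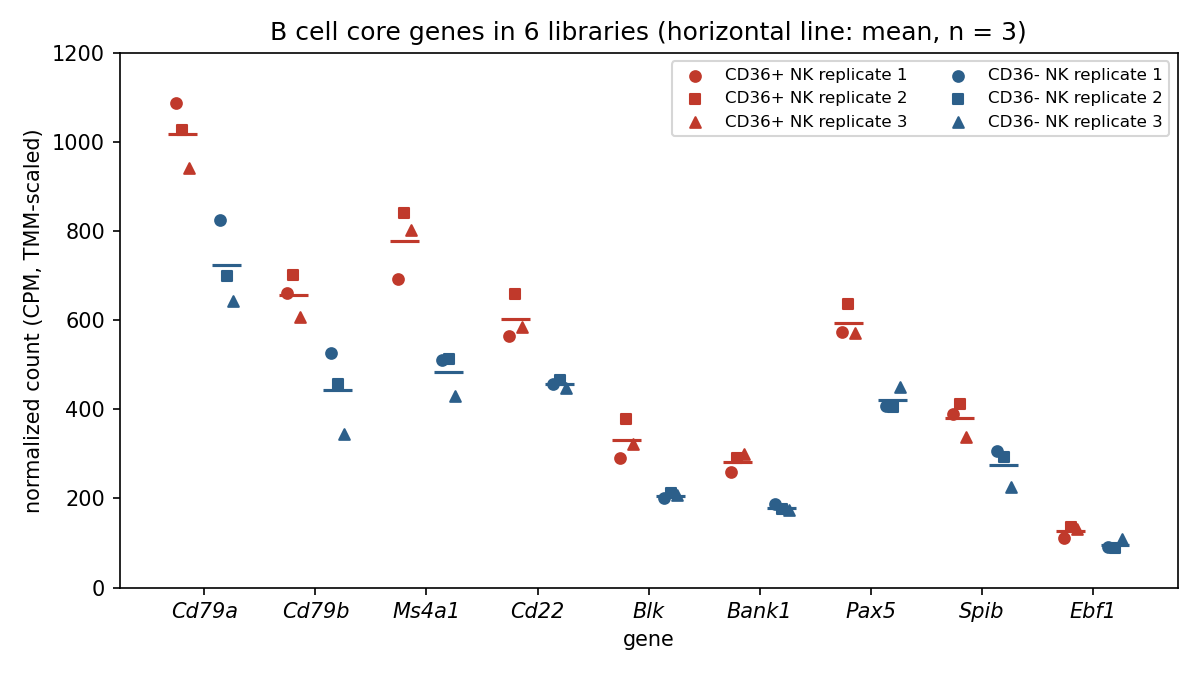
Levels of the 9 B cell core genes in CPM, normalized by TMM, in each of 3 CD36+ NK and 3 CD36- NK libraries. Points are libraries and the horizontal marks are group means. Every gene is higher in all CD36+ NK libraries than in any CD36- NK library, narrowly for Ebf1 (lowest 111 against highest 108 CPM).

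Among the receptor's signalling subunits, Cd79a (ENSMUSG00000003379, chromosome 7, 24596806 to 24601622, plus strand) had the highest level of the members, in CPM and per length. Its level was 1088, 1027 and 941 CPM in CD36+ NK replicates 1 to 3 and 825, 700 and 644 CPM in CD36- NK replicates 1 to 3. The lowest CD36+ NK library was 1.14 times the highest CD36- NK library. Mean levels were 1018 ± 74.1 CPM (SD, n = 3) and 723 ± 92.9 CPM (SD, n = 3). The log2 fold change of Cd79a was 0.49 with a standard error of 0.122 and an adjusted p of 0.0457 (edgeR), the closest to the threshold of the 6 that passed. The call of Cd79a was lost in all 6 fits with a library left out (adjusted p 0.0521 to 0.136, edgeR).

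Cd79b (ENSMUSG00000040592, chromosome 11, 106202167 to 106205588, minus strand), the partner of Cd79a, was measured at 662, 701 and 607 CPM in CD36+ NK and 527, 457 and 345 CPM in CD36- NK. CD36- NK replicate 3 was the lowest of all 6 libraries, as for Cd79a, and the CD36- NK libraries spread more widely than for any other member, with a coefficient of variation of 20.7%. The log2 fold change of Cd79b was 0.57 with a standard error of 0.161, and the adjusted p of 0.0674 (edgeR) did not pass. Per length, as FPKM, which divides the fragments by gene length and by library size, Cd79a stood at 2.11 to 2.37 times Cd79b in CD36+ NK and 2.21 to 2.69 times in CD36- NK, so these ranges of the ratio overlapped.

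Of the surface proteins, Ms4a1 (ENSMUSG00000024673, chromosome 19, 11227039 to 11243605, minus strand) encodes CD20, a tetraspan protein of mature B cells. Its level was 692, 840 and 803 CPM in CD36+ NK and 510, 513 and 430 CPM in CD36- NK. All CD36+ NK libraries lay above all CD36- NK libraries, with a gap of 1.35 times. Ms4a1 rose with a log2 fold change of 0.68 (SE 0.119, adjusted p 0.0157, edgeR), from a mean of 484 ± 47.1 to 778 ± 76.7 CPM (SD, n = 3 each). It did not pass without CD36+ NK replicate 2 (adjusted p 0.07, edgeR) or replicate 3 (0.0651).

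Cd22 (ENSMUSG00000030577, chromosome 7, 30564827 to 30579767, minus strand), whose promoter is printed above, encodes a sialic acid-binding inhibitor of the receptor. Cd22 was at 564, 659 and 586 CPM in CD36+ NK and at 456, 467 and 448 CPM in CD36- NK. The CD36- NK libraries lay close together, with a coefficient of variation of 2.11%, and CD36+ NK replicate 2 was highest. Cd22 rose with a log2 fold change of 0.40 (SE 0.0951, adjusted p 0.0413, edgeR), which with Ebf1 was the smallest of the members. The call of Cd22 was lost with any library but CD36+ NK replicate 1 left out (adjusted p 0.0702 to 0.144, edgeR), with the replicate block (0.0665), without a filter (0.0568) and without TMM (0.0577).

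The cytoplasmic members are Blk, a Src family kinase that phosphorylates the ITAMs, and Bank1, a scaffold with ankyrin repeats that binds kinases of the receptor. Blk (ENSMUSG00000014453, chromosome 14, 63610285 to 63654486, minus strand) was at 290, 379 and 323 CPM in CD36+ NK and at 200, 212 and 208 CPM in CD36- NK. The CD36+ NK libraries spread more, with coefficients of variation of 13.6% and 3.03%, and did not reach down to CD36- NK. Blk rose with a log2 fold change of 0.68 (SE 0.116, adjusted p 0.0148, edgeR). It did not pass without CD36+ NK replicate 2 or 3 or CD36- NK replicate 1 or 3 (adjusted p 0.0501 to 0.0604, edgeR).

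Bank1 (ENSMUSG00000037922, chromosome 3, 135759124 to 136031827, minus strand) was at 259, 290 and 300 CPM in CD36+ NK and at 187, 177 and 174 CPM in CD36- NK. It had the widest gap between the groups among the members, 1.39 times from the highest CD36- NK to the lowest CD36+ NK library. Bank1 rose with a log2 fold change of 0.66 (SE 0.0933) and had the lowest adjusted p of the members, 0.00759 (edgeR), and it passed in all 6 fits with a library left out.

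Among the transcription factors, Pax5 (ENSMUSG00000014030, chromosome 4, 44524757 to 44710487, minus strand), the commitment factor of the lineage, was at 574, 637 and 571 CPM in CD36+ NK and at 407, 405 and 450 CPM in CD36- NK. CD36- NK replicate 3, the lowest CD36- NK library for Cd79a and Cd79b, was the highest for Pax5. Pax5 rose from 421 ± 25.2 to 594 ± 37.3 CPM (SD, n = 3 each), a log2 fold change of 0.50 (SE 0.0955, adjusted p 0.022, edgeR). It did not pass without CD36+ NK replicate 2 or 3 or CD36- NK replicate 1 (adjusted p 0.0674 to 0.0894, edgeR) or with the replicate block (0.0562).

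Ebf1 (ENSMUSG00000057098, chromosome 11, 44508144 to 44898918, plus strand), which acts before Pax5 in B cell development, was the least abundant member. It was at 111, 137 and 131 CPM in CD36+ NK and at 90.6, 89.8 and 108 CPM in CD36- NK. The groups nearly touched, since CD36- NK replicate 3 lay just under CD36+ NK replicate 1. The log2 fold change of Ebf1 was 0.40 (SE 0.119), and the adjusted p of 0.0801 (edgeR) did not pass. It passed in 1 of 16 alternatives, with pairs by the library names as a block (0.39, adjusted p 0.0461, edgeR). That block was chosen after seeing the data.

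Spib (ENSMUSG00000008193, chromosome 7, 44175417 to 44181495, minus strand) encodes an ETS factor that acts in B cell receptor responses and is also used by plasmacytoid dendritic cells. Spib was at 390, 412 and 337 CPM in CD36+ NK and at 307, 294 and 225 CPM in CD36- NK. CD36- NK replicate 3 was again the lowest library. Spib had a log2 fold change of 0.46 (SE 0.144), and its adjusted p of 0.0895 (edgeR) did not pass.

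Genes that overlap the members in the table could add little to these values. Of the members, 5 overlap 8 annotated genes, 7 of which lie on the opposite strand, and these had 0 to 32 counts in all over the 6 libraries, against 7985 to 45685 counts for the members they overlap.

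The order of the members per length was nearly fixed. By FPKM, Cd79a was the most abundant and Cd79b the next in all 6 libraries, Ms4a1 was the fifth in all 6, and Bank1 and then Ebf1 came last in all 6. Blk and Spib changed places between libraries, as did Pax5 and Cd22, so neither of these pairs of neighbours can be ordered beyond the spread. Cd79a was at 756, 695 and 617 FPKM in CD36+ NK and 572, 495 and 440 FPKM in CD36- NK, ranking between 63 and 93 of 57180 genes. Ebf1 was at 9.58, 11.5 and 10.7 FPKM in CD36+ NK and 7.81, 7.89 and 9.15 FPKM in CD36- NK, ranking between 3844 and 5372. The mean FPKM of Ms4a1 was 91.3 in CD36+ NK and 58.5 in CD36- NK.

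Set beside NK genes on the same per-length scale, the members changed places between the groups. Ncr1 encodes the activating receptor NKp46 and was at 44.4, 60.5 and 40.5 FPKM in CD36+ NK and 250, 272 and 285 FPKM in CD36- NK. Of the 9 members, 7 had a mean FPKM above that of Ncr1 in CD36+ NK, and 1, Cd79a, did so in CD36- NK. Cd79a stood at 32.5 to 43.8 times Klrb1c in CD36+ NK and at 4.11 to 5.57 times in CD36- NK. Klrb1c is the gene of the NK1.1 antigen by which the study defined NK cells. The FPKM ratio of Pax5 to Eomes, a transcription factor of NK cells, was 11.1 to 14.4 in CD36+ NK, against 1.3 to 1.62 in CD36- NK. Over the lists, the mean FPKM of the 9 members was 3.35 to 3.67 times that of the 8 NK lineage genes in CD36+ NK and 0.341 to 0.484 times in CD36- NK. These ratios moved mostly through their denominators: Klrb1c fell with a log2 fold change of -2.46 and Eomes with one of -2.58, with adjusted p-values of 0.000428 for both (edgeR).

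**Figure D2:**
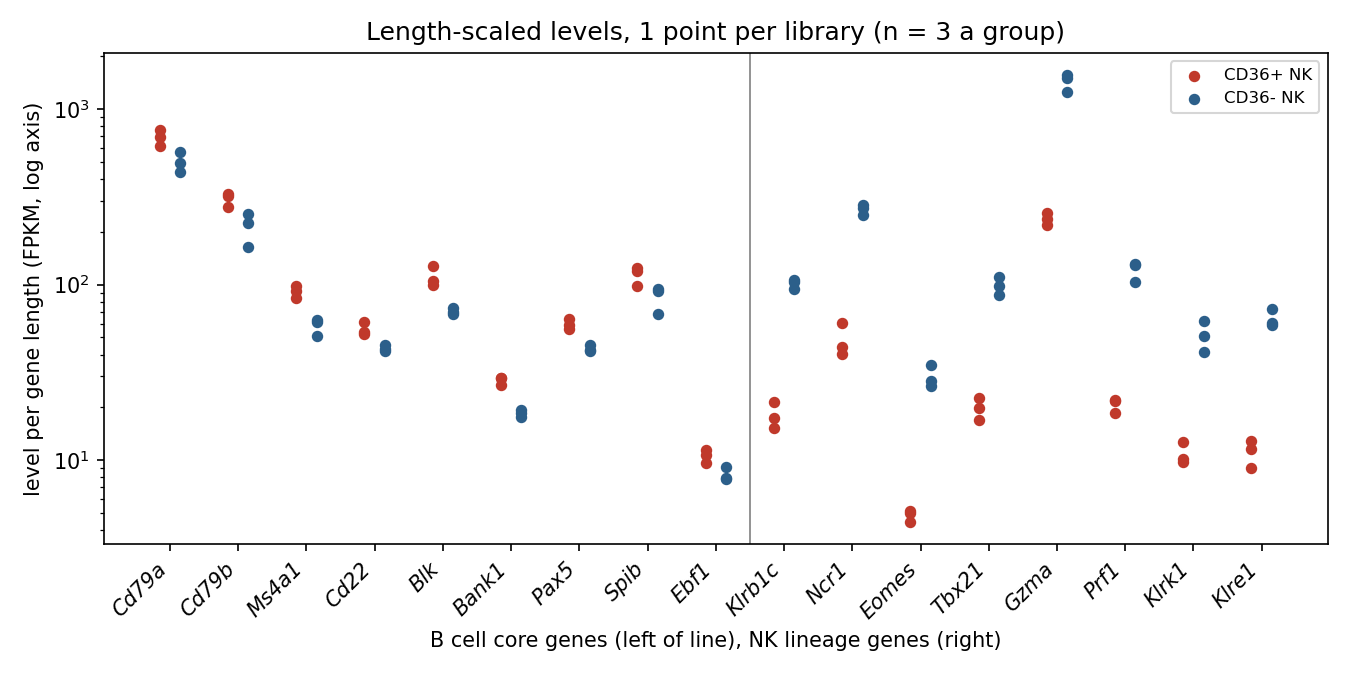
Levels per length (FPKM, log axis) of the 9 B cell core genes and the 8 NK lineage genes in each library of CD36+ NK and CD36- NK. The B cell genes lie slightly higher in CD36+ NK, while every NK gene lies lower there, and Cd79a lies above Ncr1 in all 6 libraries.

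The members' proportions to each other overlapped between the groups, apart from that of Cd22, and some were steadier than others. As a share of the summed CPM of the 9, Cd79a took 20.2% to 23.5% in CD36+ NK, against 21.1% to 23.5% in CD36- NK. The share of Spib was 7.33% to 8.42% and 7.43% to 8.88%. Ms4a1 took 14.9% to 17.5% in CD36+ NK, against 14.2% to 15.5% in CD36- NK, and Cd22 took 12.2% to 13% and 13% to 14.8%. The least steady were Ebf1, with 2.4% to 2.85% in CD36+ NK, against 2.58% to 3.56% in CD36- NK, and Cd79b, with 13.2% to 14.3% and 11.4% to 15%. In CD36- NK replicate 3 the shares of Ebf1 (3.56%) and Pax5 (14.8%) were the highest of all libraries and that of Cd79b (11.4%) the lowest. The FPKM ratio of Blk to Bank1 was 3.58 to 4.33 in CD36+ NK, against 3.55 to 3.98 in CD36- NK, and that of Pax5 to Ebf1 was 5.19 to 6.18 and 4.98 to 5.39. All of these ranges overlapped, except those of Cd22, which met at 13% only after rounding. The summed level of the 9 was 4631, 5082 and 4599 CPM in CD36+ NK and 3510, 3314 and 3032 CPM in CD36- NK.

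Single libraries moved several members at once. CD36+ NK replicate 2 was the highest CD36+ NK library for 7 of the 9, with Cd79a highest in replicate 1 and Bank1 in replicate 3. CD36- NK replicate 3 was the lowest CD36- NK library for Cd79a, Cd79b, Ms4a1, Cd22, Spib and Bank1, and the highest for Pax5 and Ebf1. The replicate 1 libraries of both groups carry sequencing names of another form than the rest, so the difference was also taken within each form. Between the replicate 1 libraries the difference in log2 CPM was 0.29 for Ebf1, 0.40 for Cd79a, 0.44 for Ms4a1 and 0.54 for Blk. Between the means of replicates 2 and 3 it was 0.44 for Ebf1, 0.55 for Cd79a, 0.81 for Ms4a1 and 0.73 for Blk. The difference was above 0 within both forms for all 9 members.

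**Figure D3:**
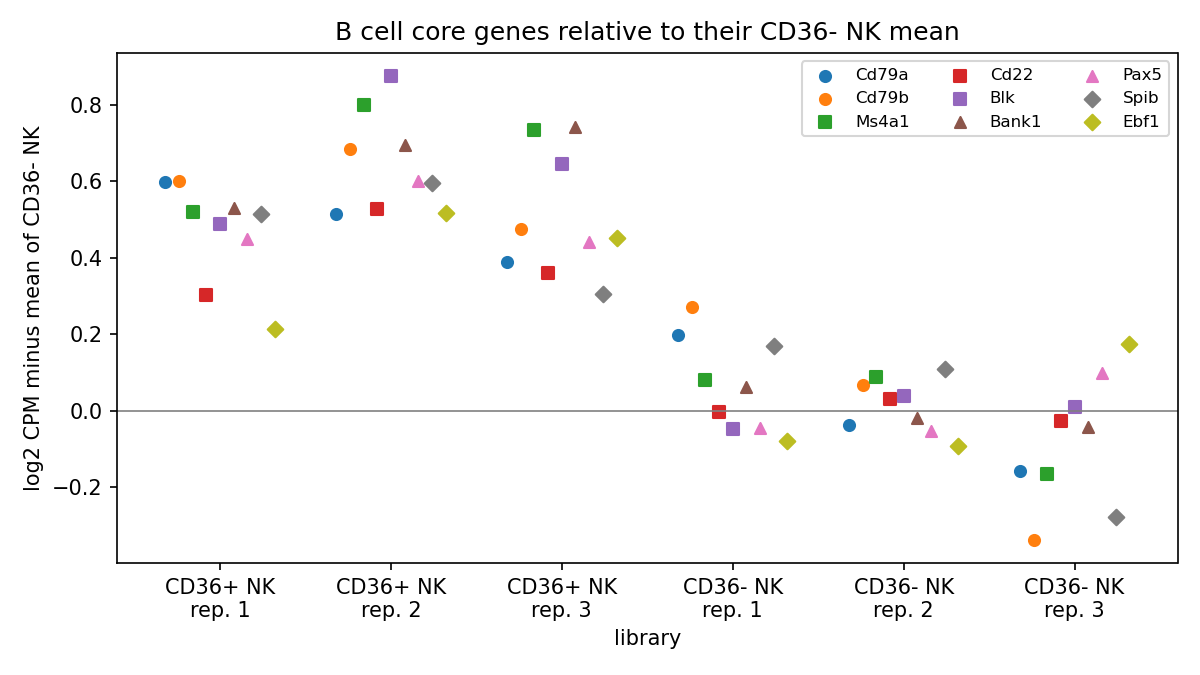
Difference in log2 CPM of each B cell core gene from its CD36- NK mean, by library, with 1 point for each gene and library and the genes offset sideways. The CD36+ NK points all lie above 0, and in CD36- NK replicate 3 Cd79b and Spib lie lowest while Ebf1 and Pax5 lie highest.

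The co-receptors and modulators of the B cell receptor, a list of 13 genes that holds no member, had log2 fold changes from 0.10 to 1.60. Of the 13, 8 rose at an adjusted p below 0.05 and none fell, and the median log2 fold change was 0.52. Leaving out CD36+ NK replicates 1, 2 and 3 in turn, 7, 1 and 4 of the 13 rose, and leaving out CD36- NK replicates 1, 2 and 3 in turn, 1, 7 and 2 rose. DEGs of this list were Cr2, which encodes CD21, with a log2 fold change of 1.04 (adjusted p 0.0206, edgeR), Cd81 with 1.60 (0.0115) and Fcrl5 with 1.58 (0.0131), all above every member. Cr2 did not pass without CD36+ NK replicate 2 or 3 or CD36- NK replicate 1 or 3 (adjusted p 0.076 to 0.0789, edgeR), Fcrl5 without CD36- NK replicate 1 or 3 or without replicate 2 of CD36+ NK (0.0545 to 0.0604) and Cd81 without CD36- NK replicate 1 (0.0516). Cd81 is a tetraspanin of many cell types. The tetraspanin Cd37, one of the most abundant of the list, had a log2 fold change of 0.10 and an adjusted p of 0.529 (edgeR).

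Of 14 further signalling proteins of the receptor, 4 rose, none fell, and the median log2 fold change was 0.19. Vav2, a guanine nucleotide exchange factor, was a DEG with a log2 fold change of 1.35 (adjusted p 0.0368, edgeR). Its call was lost without CD36+ NK replicate 2 or 3 or CD36- NK replicate 1 or 3 (adjusted p 0.102 to 0.127, edgeR). The others that rose, named here after their values were seen, were the kinases Lyn and Btk, with log2 fold changes of 0.78 and 0.51, and the adaptor Blnk, with 0.74. With CD36+ NK replicate 2 or 3 or CD36- NK replicate 1 or 3 left out, 1 of the 14 rose, and Lyn and Btk did not pass with the replicate numbers as a block (adjusted p 0.0664 and 0.0605, edgeR). Syk, the kinase recruited to the ITAMs printed above and also used by NK and myeloid cells, had a log2 fold change of 0.32 and an adjusted p of 0.0611 (edgeR), and passed with DESeq2 (0.31, adjusted p 0.00391).

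Among 11 other transcription factors of the lineage, 3 rose, none fell, and the median log2 fold change was 0.32. The risers, named after their values were seen, were Spi1 (0.71), which encodes PU.1 and is shared with macrophages, Pou2f2 (0.99), which encodes OCT2, and Bcl11a (0.53). None of these rose without CD36+ NK replicate 2 or 3 or CD36- NK replicate 1 (adjusted p 0.0601 to 0.0898, edgeR), and 1 of the 11 did without CD36- NK replicate 3. Ikzf3 and Irf8, both used by NK or myeloid cells too, had log2 fold changes of -0.33 and -0.42, with adjusted p-values of 0.0989 and 0.503 (edgeR), and Ikzf1, named after its values were seen, had -0.31 (0.093). Ikzf1 and Ikzf3 were lower in CD36+ NK without overlap, and with DESeq2 both passed as lower (adjusted p 0.0438 and 0.0452).

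Of 7 BAFF and homing receptor genes, 4 rose, none fell, and the median log2 fold change was 0.57. With CD36+ NK replicate 2 left out 1 of the 7 rose, and with any other library left out 2 did. Tnfrsf13b, which encodes the BAFF and APRIL receptor TACI, was at 164, 192 and 174 CPM in CD36+ NK and 114, 116 and 101 CPM in CD36- NK, with a log2 fold change of 0.68 and an adjusted p of 0.00901 (edgeR). Ly6d rose by 0.60 (adjusted p 0.0457, edgeR), and Cxcr5 and Ccr6, chemokine receptors named after their values were seen, rose by 0.57 and 0.82 on the log2 scale. The calls of Ly6d and Cxcr5 were lost in all 6 fits with a library left out (adjusted p 0.0534 to 0.143 and 0.0632 to 0.0928, edgeR), that of Ccr6 without CD36+ NK replicate 2 (0.0513), and none of the list passed without both libraries numbered 1. Fcmr, an Fc receptor for IgM, had a log2 fold change of 0.30 and an adjusted p of 0.229 (edgeR).

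**Figure D4:**
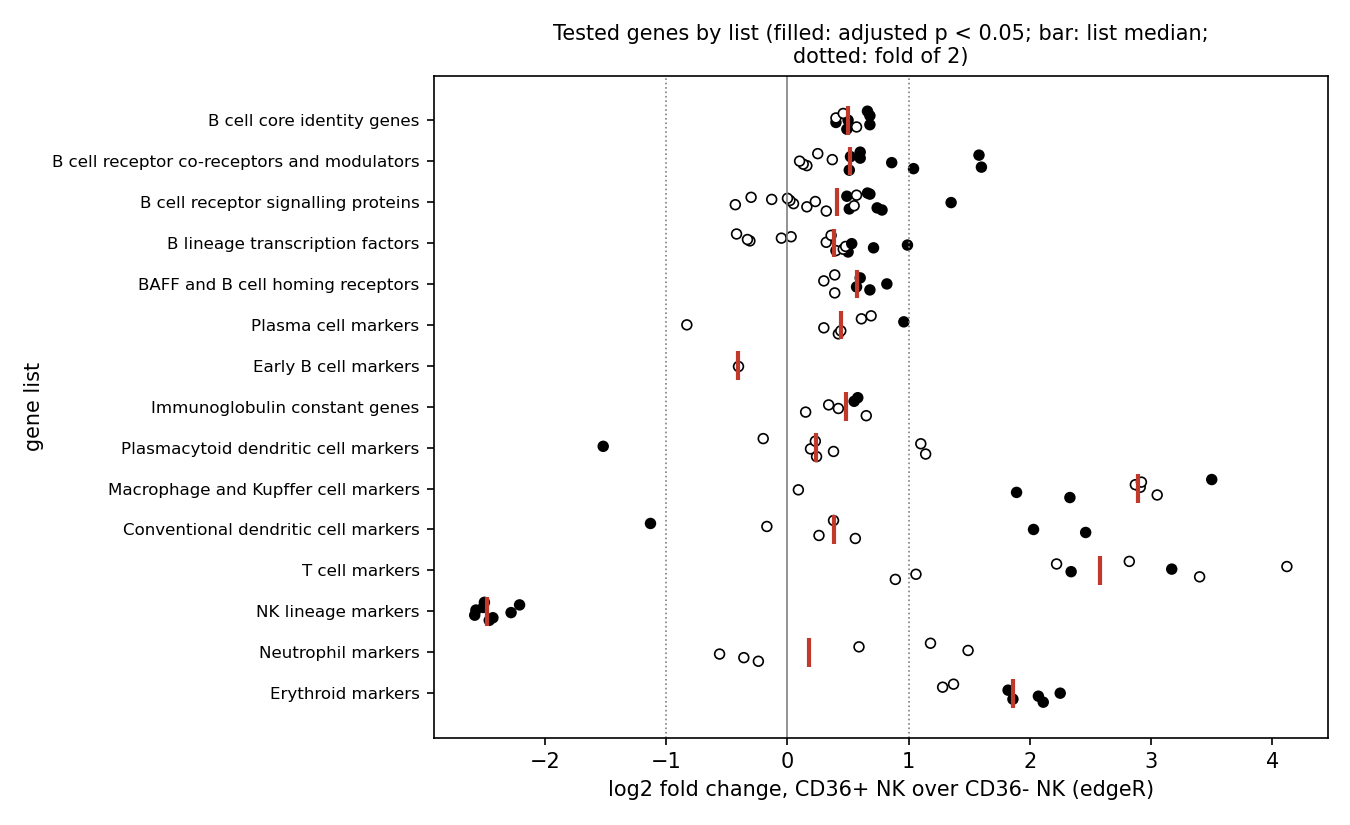
Log2 fold changes of CD36+ NK against CD36- NK for the tested genes of each marker list. Each point is a gene (filled where the adjusted p was below 0.05), the red bars are list medians, the dotted lines mark a fold of 2, and the signalling and transcription factor lists include the members that belong to them. The B cell lists lie between the NK lineage genes (median -2.48) and the macrophage genes (median 2.89), with the 9 B cell core genes between 0.40 and 0.68.

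The stage of the B lineage was read from further lists. Early B cell genes were close to absent: 1 of 7 had enough counts to be tested, Vpreb2 was at 0 counts in all 6 libraries, and the gene tested, Cd93, which is not confined to B cells, had a log2 fold change of -0.41 and an adjusted p of 0.22 (edgeR). Rag1, named after its values were seen, did not pass the filter and was not tested. It had 14, 16 and 7 raw counts in CD36+ NK and 3, 1 and 4 in CD36- NK, and was the only gene of the list higher in CD36+ NK without overlap. A count of 0 allows up to 3 counts in a library, for counting error only. The 7 plasma cell genes had log2 fold changes from -0.83 to 0.96 with a median of 0.44, and 1 rose, Mzb1, from 74.2 ± 14.7 to 145 ± 4.6 CPM (SD, n = 3 each), a log2 fold change of 0.96 with an adjusted p of 0.0101 (edgeR). Jchain, the joining chain of secreted IgM and IgA, was at 1198, 600 and 829 CPM in CD36+ NK and 879, 485 and 572 CPM in CD36- NK, so the groups overlapped. Xbp1, a factor of secretory cells, had a log2 fold change of 0.30 and an adjusted p of 0.169 (edgeR). Prdm1, which encodes BLIMP1, the factor of plasma cell differentiation that NK and T cells also use, lay the other way and is named after its values were seen. It was at 28.7, 26.2 and 38.4 CPM in CD36+ NK and 47, 47.1 and 71.4 CPM in CD36- NK, without overlap. Its log2 fold change was -0.83 with an adjusted p of 0.0547 (edgeR), and it passed with DESeq2 (-0.84, adjusted p 0.00533), edgeR's exact test (0.00715) and the replicate block (0.0213). It also passed with upper-quartile scaling (adjusted p 0.0475, edgeR) and without TMM (0.0398).

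Of the immunoglobulin constant genes, Ighm and Igkc lay above every member per length, with means of 3443 and 4860 FPKM in CD36+ NK and 2250 and 3734 FPKM in CD36- NK. Ighm, the heavy chain of IgM, was at 8651, 6508 and 8108 CPM in CD36+ NK and 5722, 5080 and 3980 CPM in CD36- NK. The groups did not overlap for Ighm, but the log2 fold change of 0.65 had an adjusted p of 0.0528 (edgeR). Ighm passed with DESeq2 (adjusted p 0.00334), with edgeR's exact test (0.0127) and with the form of the library name as a block (0.0348). Igkc and Ighd overlapped between the groups, with log2 fold changes of 0.42 and 0.15. Iglc2 and Iglc3, named after their values were seen, rose by 0.55 and 0.58, but they are near-identical copies whose counts could be split, so both are uncertain. Of the 6 genes, 2 rose and none fell, and the median log2 fold change was 0.48. Both calls were lost with any single library left out, except that 1 of the 6 rose without CD36- NK replicate 1. With pairs by the library names as a block, 5 of the 6 rose, Ighm and Igkc included (adjusted p 0.0136 and 0.0355, edgeR).

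Markers of other cell types also differed between the groups, and their part in the members' differences was not tested. Plasmacytoid dendritic cells share Spib with B cells, and their 8 markers summed to 193 to 232 CPM in CD36+ NK and 164 to 218 CPM in CD36- NK. Their median log2 fold change was 0.24, and 6 of the 8 lay above 0. Most of the summed level came from Bst2, Tcf4 and Runx2, with means of 61.8, 88.4 and 41.7 CPM in CD36+ NK and 47.6, 77.8 and 47.9 CPM in CD36- NK. These, the most abundant of the list, had log2 fold changes of 0.38, 0.19 and -0.20, none past the threshold. Ccr9, named after its values were seen, had 1.14 without overlap between the groups (adjusted p 0.0715, edgeR). Cox6a2 passed as lower in CD36+ NK, at -1.52 (adjusted p 0.0499, edgeR), but not with DESeq2 (0.0638), with the replicate block (0.109) or with any library left out. Its raw counts were low, at 8, 11 and 4 in CD36+ NK and 24, 17 and 21 in CD36- NK. The defining marker Siglech, named after its values were seen, was at 2.33 to 4.27 CPM in CD36+ NK, against 1.95 to 3.54 CPM in CD36- NK. Per length, Spib stood at 224 to 355 times Siglech in CD36+ NK and 204 to 283 times in CD36- NK.

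The macrophage and Kupffer cell list summed to 6427 to 8616 CPM in CD36+ NK and 2406 to 5610 CPM in CD36- NK. Of its 10 genes, 8 were tested and 3 rose, all DEGs: Csf1r (log2 fold change 1.89), Adgre1 (2.33) and Marco (3.50). Clec4f and Vsig4, named after their values were seen, were not tested. Clec4f had 17, 624 and 0 raw counts in CD36+ NK and 0 in each CD36- NK library. Vsig4 had 10, 181 and 6 raw counts in CD36+ NK and 0, 3 and 0 in CD36- NK, so CD36+ NK replicate 2 held most counts of both genes. C1qa, C1qb and C1qc, named after their values were seen, had log2 fold changes of 2.91, 2.87 and 2.92 without overlap, and adjusted p-values of 0.0576, 0.0527 and 0.0571 (edgeR). With DESeq2, with edgeR's exact test and with the form of the library name as a block 6 of the list rose, and without CD36- NK replicate 2 or with pairs by the library names as a block 7 did. None of the list passed without CD36+ NK replicate 2 or 3 or CD36- NK replicate 1 or 3, and Csf1r and Adgre1 did not pass with the replicate block (adjusted p 0.0727 and 0.0747, edgeR). Lyz2, the most abundant of the list, had a log2 fold change of 0.09 and an adjusted p of 0.882 (edgeR). Cd79a stood at 4.42 to 13.2 times Adgre1 per length in CD36+ NK and at 14.2 to 49.3 times in CD36- NK, and these ranges did not overlap. Of 7 conventional dendritic cell genes, Xcr1 (2.46) and Clec9a (2.03) rose and Itgax (-1.13) fell, on the log2 scale. Clec9a did not pass with the replicate block (adjusted p 0.052, edgeR) or without CD36+ NK replicate 2 (0.0624) or 3 (0.0745) or CD36- NK replicate 1 (0.0839) or 3 (0.0559), and neither Xcr1 nor Clec9a passed without both libraries numbered 1. Of 8 T cell genes, Cd4 (2.34) and Cd8a (3.17) rose, and the list summed to 338, 28.1 and 47.7 CPM in CD36+ NK and to 27.4 to 31.4 CPM in CD36- NK, so CD36+ NK replicate 1 stood apart. Without that library Cd4 was at 1.61 and Cd8a at 1.95, both still past the threshold, and 3 other T cell genes passed as lower in CD36+ NK. Neither Cd4 nor Cd8a passed with the replicate block (adjusted p 0.101 and 0.0821, edgeR) or without CD36+ NK replicate 3 or any 1 of the CD36- NK libraries. Of 7 erythroid genes, 5 rose (0 without CD36- NK replicate 1 or 3, 2 without CD36+ NK replicate 2, 3 without CD36- NK replicate 2, 4 without CD36+ NK replicate 3), with a summed level of 345 to 779 CPM in CD36+ NK and 74.7 to 163 CPM in CD36- NK. The 6 neutrophil genes had log2 fold changes from -0.56 to 1.49, and their sum was 2369 CPM in CD36+ NK replicate 1, 456 and 502 CPM in the other CD36+ NK libraries and 731 to 1797 CPM in CD36- NK. Without CD36+ NK replicate 1, 3 neutrophil genes passed as lower in CD36+ NK.

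Genes with the pattern most like the members were found by Pearson's r between log2 CPM and the members' mean log2 CPM over the 6 libraries, a description in which each gene shares the libraries and the 2 groups with the members. The 10 with the highest r, from 0.998 to 0.994, were Sgms1, Lifr, Mrpl2, Kynu, Gm48614, Swap70, Tnfrsf13b, Pkd1, L1cam and Rasgrp3. Sgms1 encodes a sphingomyelin synthase and was at 86.7, 105 and 92.2 CPM in CD36+ NK and 57, 56.5 and 50.8 CPM in CD36- NK. Swap70, a B cell signalling protein that binds actin, was at 429, 489 and 449 CPM in CD36+ NK and 345, 331 and 324 CPM in CD36- NK. Tnfrsf13b was the only one of the 10 that is on a B cell list above. Cd36 had an r of 0.953 and ranked 204 of 14691 genes. With each group's mean removed, the highest were Ier3ip1, Wrap73 and Mtrf1l, with r from 1.000 to 0.991, and 0 genes were among the first 10 in both orders. Tnfrsf13b then ranked 71 with an r of 0.939.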

How the data were processed

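Reads were filtered (Seqtk), mapped (HISAT2 2.0.4) and assigned to genes (StringTie) by the authors, who deposited raw counts and FPKM values side by side. The deposited FPKM values were counts divided by gene length and library total, in 100.0% of 7439 genes with over 200 counts in every library (tolerance 1%), and were used only to compare levels between genes. The submitters' processing notes name a rat build, mRatBN7.2, while the identifiers are mouse Ensembl identifiers. The table names no build, so its coordinates are given as they stand and were not joined to the GRCm38 sequences. The lines of 2 genes were broken and were rejoined. The table holds 0 rows without a gene identifier and 0 columns without a sample. The sign of CD36 in the library names differs from that in the titles, and the titles were followed.

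Genes were kept by filterByExpr of edgeR 4.0.16 (minimum count 10), scaled by TMM and tested with the quasi-likelihood test in R 4.3.3, with Benjamini-Hochberg adjustment over 14761 genes. The thresholds for DEGs, an adjusted p of 0.05 and a fold of 2, follow the study's methods. CPM values are TMM-normalized, and log2 CPM uses a prior count of 2. A standard error is the size of the log2 fold change over the square root of its F statistic. Total counts ran from 10292480 to 13787189, and replicates differed by more than counting noise (chi-square per degree of freedom 13.5 to 26.5). On simulated counts of this comparison, run on 14508 genes, 172 of 200 changed genes and 8 others were called. Recovery of differences as small as those of the members was not tested.

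The members and lists were chosen with earlier results of these data known. The named genes are the members, the genes of each list that passed the thresholds or were among its 3 with the highest mean CPM, the 10 genes most like the members in each of 2 orders, and Cd36. Not every gene that this rule names is reported here. Others are said to be chosen after their values were seen. Upper-quartile scaling, other filters, blocks on the replicate number and on the form of the library name, edgeR's exact test, DESeq2 1.42.0 and leaving out each library in turn were the alternatives. Scaling without TMM, leaving out both libraries numbered 1 and a block on pairs by the library names were chosen after seeing the data. The replicate numbers come from the titles, which do not say whether equal numbers share animals, and the library names number the CD36- NK libraries differently. Sequences are from GENCODE M21 and RefSeq.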

Additional observations from a re-analysis of the deposited data

How the results depend on the processing

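All 9 members kept a positive log2 fold change under every alternative, and 0 of the 9 were DEGs under any of them, edgeR and DESeq2 included. The number of members at an adjusted p below 0.05 was less stable. It was 6 with edgeR's quasi-likelihood test, 8 with DESeq2, 7 with the exact test, 5 with upper-quartile scaling, 4 without a filter, 4 without TMM and 2 without both libraries numbered 1, and 1 to 5 when 1 library was left out. With the replicate block it was 4, and the number of DEGs was 560 (221 higher, 339 lower) in place of 880. Same-numbered libraries deviated together with correlations of 0.31, 0.0515 and -0.0837, so the numbers were not taken as pairs. The library names carry other numbers than the titles for CD36- NK. Pairing by the form and number of these names (both replicates 1, CD36+ NK replicate 2 beside CD36- NK replicate 3, and the remaining libraries), chosen after seeing the data, gave correlations of 0.31, 0.121 and 0.254, of which the last joins libraries that share no number. As a replicate block these pairs gave 1061 DEGs (626 higher, 435 lower) and 7 members at an adjusted p below 0.05, with Ebf1 passing (0.39, adjusted p 0.0461, edgeR). The number of DEGs was 417 to 1160 with 1 library left out, 433 without both libraries numbered 1, 1143 with DESeq2 (652 higher, 491 lower) and 1247 with the exact test (723 higher, 524 lower). The members' median log2 fold change was 0.48 to 0.59 with 1 library left out. Passing with DESeq2 were Cd79b (log2 fold change 0.56, adjusted p 0.011) and Spib (0.46, 0.0328), and with edgeR's exact test Cd79b (0.57, 0.0281). Not passing with edgeR were Cd79a with upper-quartile scaling (0.50, adjusted p 0.0559), Cd79a (0.51, 0.0683) and Cd22 (0.41, 0.0568) without a filter, Cd79a (0.46, 0.069) and Cd22 (0.36, 0.0577) without TMM, and Cd22 (0.40, 0.0665) and Pax5 (0.50, 0.0562) with the replicate block. Without both libraries numbered 1, Cd79a (0.54, adjusted p 0.0724, edgeR), Cd22 (0.43, 0.108), Pax5 (0.49, 0.1) and Blk (0.73, 0.0517) did not pass. With 1 library left out, log2 fold changes were 0.62 to 0.71 for Bank1, which passed in 6 of 6, 0.60 to 0.75 for Ms4a1 (4), 0.45 to 0.54 for Pax5 (3), 0.57 to 0.75 for Blk (2), 0.33 to 0.43 for Cd22 (1), 0.41 to 0.59 for Cd79a (0), 0.41 to 0.70 for Cd79b (0), 0.34 to 0.48 for Ebf1 and 0.33 to 0.54 for Spib. Fewer libraries were fitted there, and the causes of the other changes were not tested. Signs turned for Ier3ip1 (-0.02 to 0.08 with 1 library left out, -0.02 without CD36+ NK replicate 2 and -0.01 without CD36- NK replicate 3), Tcf4 (-0.08 to 0.39, lowest without CD36- NK replicate 1) and Lyz2 (-0.20 to 0.30, lowest without CD36- NK replicate 3), none of which passed the test. Over 16 alternatives, the 69 other named genes that were tested kept their direction and their side of the threshold 902 times, turned sign 4 times without a call, lost the call 164 times and gained one 32 times, and the gains were for C1qa, C1qb, C1qc, Prdm1, Ighm, Ccr9, Ikzf1, Ikzf3, Syk, Mrpl2 and Igkc. At the depth of 10292480 to 13787189 counts, 6 of 7 early B cell genes had too few counts to be tested, and the part of depth in this was not tested.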
